A study of Mus musculus with 12 samples.

Results

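Interferon stimulated genes are the genes that a cell transcribes when type I interferon reaches its surface receptor, and 38 of them were followed by name among the 32721 genes of a deposited RNA sequencing table of mouse embryonic fibroblasts. They were taken by gene symbol. All 38 had a row, and all 38 passed the filter on low values that left 14279 genes for testing. The cells were MEF Vps15f/f, fibroblasts of 1 line with floxed alleles of Vps15 (gene symbol Pik3r4), which encodes the partner that holds the class 3 PI3K complex together, an enzyme needed in autophagy and endosomal sorting. The 4 groups of 3 libraries were Vps15KO cells (adeno-CRE) in EBSS, Vps15KO cells in basal medium, WT cells (adeno-GFP) in EBSS and WT cells in basal medium. All groups therefore carried the floxed alleles and an adenoviral vector, and the effects of Cre and of Vps15 loss cannot be told apart. The library names read pLEX_GFP and pLEX_CRE, which the labels do not explain. Cells were taken 5 days after transduction. They were at 90% confluence in DMEM (4.5 g/L glucose) with 10% FBS when treatment began, and the labels do not say what the basal medium was. All 12 libraries carry the same batch label. EBSS, a salt solution without amino acids, was given for 2 h and also lacks serum and has less glucose. The labels do not say whether replicates were separate cultures, so p-values measure the spread between these libraries, which may be technical.

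In the pathway, type I interferons bind the receptor chains encoded by Ifnar1 and Ifnar2, and the kinases Jak1 and Tyk2 then phosphorylate Stat2. Stat2 and Irf9 are subunits of ISGF3, a transcription factor that binds a DNA element called the ISRE in the promoters of its targets. The products of the targets block viral RNA, proteins and particles, and several of them (Stat2, Irf9, Usp18) act back on the pathway. In fibroblasts a low tonic level of the same genes is kept by interferon beta that the cells release themselves.

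The element was looked for in the 250 bases before each annotated start of transcription, from RefSeq promoters (GRCm38.p6, the assembly of mm10), as the core letters GAAA, any 2 bases and GAAA, on either strand (TTTC, any 2 bases and TTTC where the other strand holds it). The core stood there in 13 of the 30 members with a promoter entry (43.3%), against 936 of 27025 genes with one (3.46%). There was no entry for Usp18, Oas2, Mx1, Mx2, Parp9, Parp14, Rtp4 and Ifi27. Overlapping matches were counted, and 7 members (Isg15, Oas1a, Ifit1, Ifit3, Ifit3b, Gbp3 and Bst2) held more than 1. The 8 windows below show the element before the annotated start sites of members whose values are described further on, with the core in capitals and each written on the strand of its gene.
Isg15: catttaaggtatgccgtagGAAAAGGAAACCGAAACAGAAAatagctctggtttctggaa
Rsad2: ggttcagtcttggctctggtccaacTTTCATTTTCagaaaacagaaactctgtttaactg
Oas3: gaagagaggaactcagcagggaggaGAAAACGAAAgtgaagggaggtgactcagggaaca
Ifit1: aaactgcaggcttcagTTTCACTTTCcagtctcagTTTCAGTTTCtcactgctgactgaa
Ifit3: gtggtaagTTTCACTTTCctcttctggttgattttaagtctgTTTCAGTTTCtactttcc
Ifit3b: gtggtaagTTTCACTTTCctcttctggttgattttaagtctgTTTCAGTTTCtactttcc
Gbp2: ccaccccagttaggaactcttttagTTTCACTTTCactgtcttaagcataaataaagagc
Stat2: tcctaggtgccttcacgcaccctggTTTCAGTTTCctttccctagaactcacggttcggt
The Isg15 window, chr4:156200856-156200915 on the minus strand, holds 3 overlapping matches in a row, the farthest beginning 78 bases before the start site. Rsad2 (chr12:26456538-26456597, minus) and Oas3 (chr5:120777700-120777759, minus) hold 1 match each, beginning 120 and 75 bases before the start. Ifit1 (chr19:34640769-34640828, plus) holds 2. The windows of Ifit3 (chr19:34583365-34583424, plus) and Ifit3b (chr19:34607761-34607820, plus) are the same in all 60 bases and lie within the annotated gene spans, before a later start site. Gbp2 (chr3:142620579-142620638, plus) and Stat2 (chr10:128270251-128270310, plus) hold 1 match each, beginning 59 and 222 bases before the start. The first matches of Ifit1, Ifit3 and Ifit3b begin 104, 156 and 188 bases before theirs. Bases just after the annotated start were found in a GENCODE transcript of the gene for 26 of the 37 promoter entries of members. Of the 8 shown, those of Stat2 and Ifit3b were not found. The core was not found in the window of Oasl1, nor in those of Herc6, Trim25, Irf9, Oasl2, Eif2ak2, Adar, Ifit2, Cmpk2, Dtx3l, Ifitm3, Lgals3bp, Ifi44, Ifi35, Xaf1, Sp100 and Samd9l, which says only that these letters are not in these bases. GAS elements (TTCNNNGAA, which reads the same on both strands), which also mediate interferon responses, stood in 5 of the 30 members (16.7%) and in 8.13% of all genes with an entry.

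Libraries held 21278921 to 21698584 reads in genes. Pik3r4 lay at 602 to 672 normalized counts in Vps15KO EBSS and 633 to 699.8 in Vps15KO basal libraries, against 834 to 959 in WT EBSS and 864 to 884 in WT basal libraries. The ratio of Vps15KO to WT means was 0.71 in EBSS and 0.75 in basal medium, so most of its reads remained. Loss of the protein cannot be read from these counts. A normalized count here is the number of reads, worked back from the deposited log2 values, divided by the size factor of the library. Among replicates, 1 WT library of each medium (basal replicate 2 and EBSS replicate 1) had read counts apart from the rest of its group (chi-square per gene 21.0 or more and 8.45 or more, against 3.24 and 3.92 between the other replicates), so counts of calls are also given without both. Of the 10 fibroblast markers 9 were tested, and 8 were called lower in Vps15KO than in WT cells in basal medium and 7 in EBSS. Over all tested genes 29.2% were called lower in basal medium and 27.8% in EBSS. Thy1 had at most 3.18 normalized counts in any library. The summed fibroblast markers were 262613 to 274176 in Vps15KO EBSS and 253589 to 262801 in Vps15KO basal libraries, against 434163 to 446370 in WT EBSS and 469332 to 506424 in WT basal libraries. Of leukocyte markers, Ptprc, Adgre1, Cx3cr1, Itgam, Lyz2 and Tyrobp summed to 5.90 normalized counts or fewer in every library, and Flt3 had at most 3.93. Csf1r had 9.76, 3.92 and 6.86 in Vps15KO basal libraries, against 2.00, 1.06 and 5.00 in WT basal libraries. It was called higher there (log2 difference 0.37, limma's adjusted p = 0.0334) and had no call in EBSS (0.042). The list's sum was 2642 to 3312 in Vps15KO EBSS and 2925 to 3803 in Vps15KO basal libraries, against 806 to 899 in WT EBSS and 866 to 898 in WT basal libraries, nearly all of it Cd68, which encodes a lysosomal membrane protein. The part of the markers in the values below was not tested, and in bulk RNA fewer expressing cells and less RNA per cell cannot be told apart.

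In basal medium most interferon stimulated genes were higher in Vps15KO than in WT cells. Of the 38 members, 29 were called higher, 2 (Ifitm3 and Ifi27) lower, and 7 (Isg15, Trim25, Irf9, Adar, Parp9, Ifi35 and Xaf1) had no call, by limma at an adjusted p under 0.05. Over all tested genes 29.3% were called higher and 29.2% lower. The members' median log2 difference was 0.46, against -0.0095 for all tested genes. In normalized counts the median Vps15KO to WT ratio of the members was 1.39, and 8 members were over 2. Rsad2, Oasl1 and Oas3 stood above the other members, with ratios of 16.2, 12.5 and 5.74. The Vps15KO libraries lay above all WT libraries in 29 members and below them in 3, against 30.5% and 31.1% of all tested genes. By log2 difference Rsad2, Oasl1 and Oas3 ranked 2, 5 and 17 among the 14279 genes tested, and the next member, Ifit2, ranked 184. Without both libraries that stood apart, 30 members were called higher and 2 lower.

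After 2 h in EBSS more members were called between genotypes. Of the 38, 35 were called higher in Vps15KO EBSS than in WT EBSS libraries, 1 (Ifitm3) was called lower, and Trim25 and Ifi27 had no call. Over all tested genes 29.4% were called higher and 27.8% lower there. The members' median log2 difference was 0.88, against -0.00076 for all tested genes, and their median ratio was 1.86, with 15 over 2. All 29 members called higher in basal medium were also called higher in EBSS, and 6 more (Isg15, Irf9, Adar, Parp9, Ifi35 and Xaf1) were called there. This overlap of calls was not counted over all tested genes. The Vps15KO EBSS libraries lay above all WT EBSS libraries in 35 members and below them in 1, against 33.8% and 32.5% of all tested genes. Together the 38 genes took 0.479% ± 0.0075 of reads in Vps15KO EBSS and 0.423% ± 0.012 in Vps15KO basal libraries, against 0.299% ± 0.036 in WT EBSS and 0.334% ± 0.016 in WT basal libraries (SD, n = 3 each). Without both libraries that stood apart, 36 members were called higher and 1 lower.

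**Figure D1:**
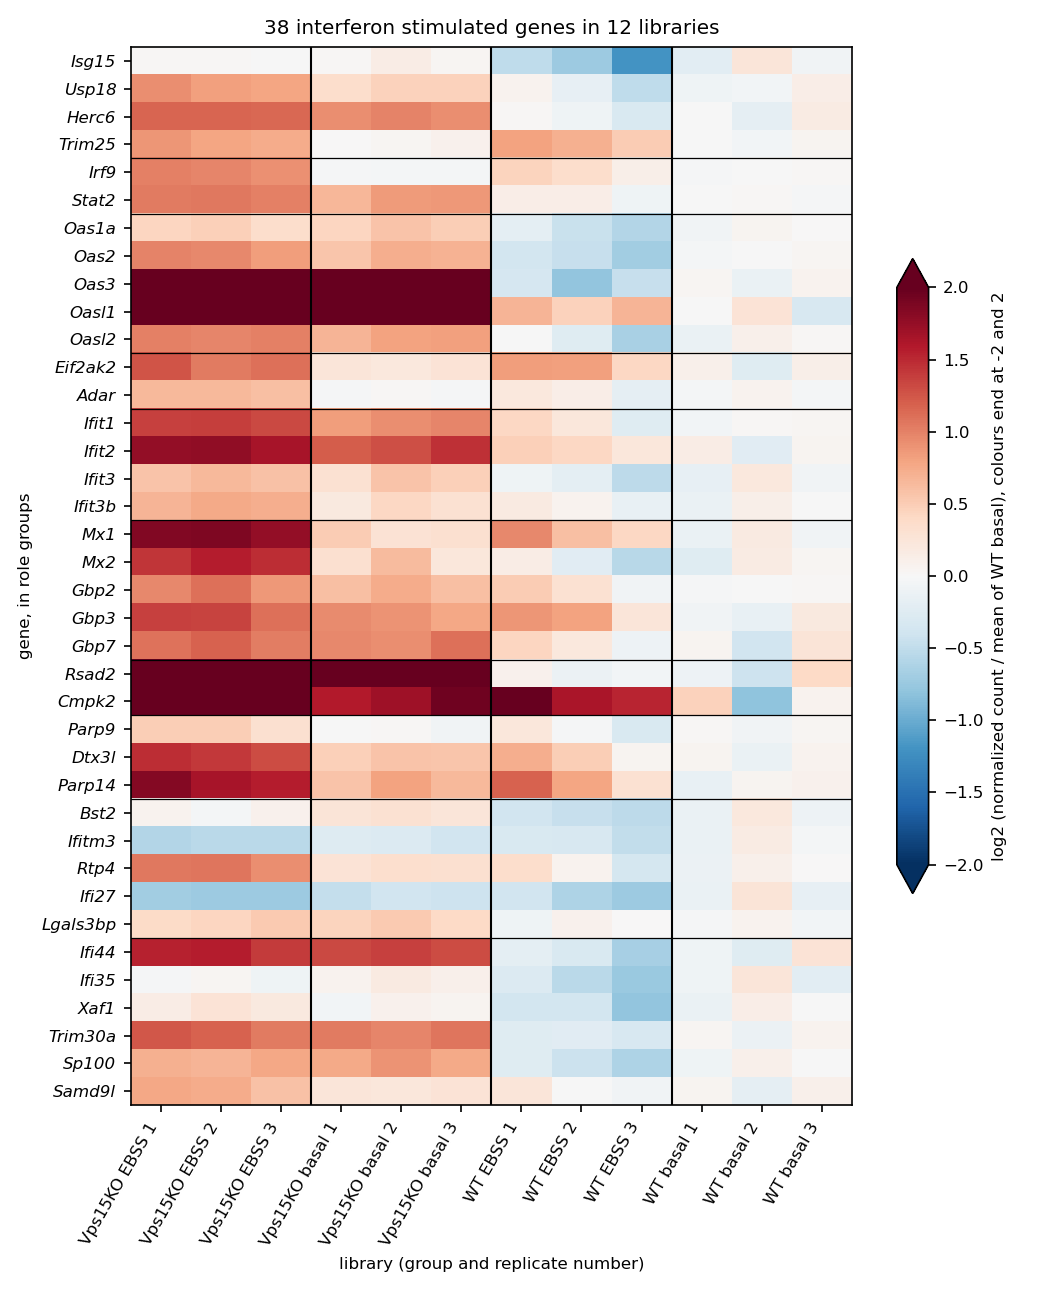
Heat map of the 38 genes (rows, in role groups parted by lines) in the 12 libraries (columns, Vps15KO EBSS, Vps15KO basal, WT EBSS, WT basal), with colour for the log2 of the normalized count over the mean of the WT basal libraries, ending at -2 and 2. Most rows are red in the 6 Vps15KO libraries, darkest in Oas3, Oasl1 and Rsad2, while Ifitm3 and Ifi27 are blue there and many rows turn blue in WT EBSS replicate 3.

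Of the genes of ISG15 conjugation, Herc6 and Usp18 were higher in Vps15KO cells in both media, Isg15 in EBSS alone by its call, and Trim25 in neither. Isg15 encodes a ubiquitin-like protein that is attached to other proteins. It had 3195, 3501 and 3223 normalized counts in Vps15KO basal libraries, against 2725, 3706 and 2996 in WT basal libraries. In EBSS Isg15 had 3189.8, 3185 and 3135 in Vps15KO EBSS libraries, against 2205, 1909 and 1367 in WT EBSS libraries. The basal groups overlapped, while in EBSS all 3 Vps15KO libraries lay above all 3 WT libraries, which were the lowest of the 12. The log2 difference, here and below with the SE of the fit and limma's adjusted p, was 0.084 ± 0.12 (adjusted p = 0.587) in basal medium and 0.81 ± 0.12 (adjusted p = 1.95e-05) in EBSS. Without both libraries that stood apart a basal difference was called (0.21, adjusted p = 0.0284). Herc6, the main ligase of ISG15 conjugation in the mouse, had 754, 780.2 and 752 normalized counts in Vps15KO basal libraries, against 392, 347 and 442 in WT basal libraries. Counts of Herc6 after EBSS were 885, 884 and 873 in Vps15KO EBSS libraries, against 402, 371 and 318 in WT EBSS libraries. In both media all Vps15KO libraries lay above all WT libraries, and the log2 difference was 0.91 ± 0.09 (adjusted p = 6.50e-08) in basal medium and 1.22 ± 0.09 (adjusted p = 1.22e-09) in EBSS. Of the Herc6 transcript 23.8% is shared with Gm45193, so its reads may be split. Usp18, the protease that takes ISG15 off proteins and damps the receptor, averaged 2266 ± 118 normalized counts in Vps15KO EBSS and 1685 ± 68.5 in Vps15KO basal libraries, against 1112 ± 216 in WT EBSS and 1258 ± 105 in WT basal libraries (SD, n = 3 each). Its log2 difference was 0.42 ± 0.10 (adjusted p = 0.00161) in basal medium and 1.02 ± 0.10 (adjusted p = 8.40e-08) in EBSS. Trim25, a ubiquitin ligase of RNA sensing, had 2272, 2325 and 2410.2 normalized counts in Vps15KO basal libraries, against 2259, 2173 and 2358 in WT basal libraries. Trim25 in EBSS stood at 4171, 3922 and 3796 in Vps15KO EBSS libraries, against 3968, 3717 and 3216 in WT EBSS libraries. All EBSS libraries lay above all basal libraries, while the genotypes overlapped within each medium. The log2 difference between genotypes was 0.045 ± 0.07 (adjusted p = 0.601) in basal medium and 0.13 ± 0.07 (adjusted p = 0.127) in EBSS. In EBSS a call appeared without WT EBSS replicate 1 (0.19, adjusted p = 0.0318).

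The DNA-binding and transactivating subunits of ISGF3 differed from each other. Stat2 had 3723, 4243 and 4274 normalized counts in Vps15KO basal libraries, against 2342, 2374 and 2319 in WT basal libraries. In EBSS Stat2 had 4811, 4881 and 4727 in Vps15KO EBSS libraries, against 2573, 2578 and 2207 in WT EBSS libraries. All Vps15KO libraries lay above all WT libraries, by a log2 difference of 0.79 ± 0.07 (adjusted p = 1.68e-08) in basal medium and 0.97 ± 0.07 (adjusted p = 9.97e-10) in EBSS. Irf9, which carries most of the DNA contact of ISGF3, had 1825, 1821 and 1810.1 normalized counts in Vps15KO basal libraries, against 1827, 1861 and 1896 in WT basal libraries. The 3 Vps15KO values lay just below the 3 WT values, and the log2 difference was -0.033 ± 0.07 (adjusted p = 0.703). In EBSS Irf9 had 3746, 3666 and 3522 in Vps15KO EBSS libraries, against 2542, 2382 and 2029 in WT EBSS libraries. There the Vps15KO libraries were the highest of the 12, and the difference was 0.65 ± 0.07 (adjusted p = 2.15e-07).

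Members of the OAS family, which sense double-stranded RNA and make oligoadenylates that switch on RNase L, were all called higher in Vps15KO cells in both media. Oasl1, which in the mouse lacks synthetase activity and represses translation of Irf7, had 570.3, 752 and 842 normalized counts in Vps15KO basal libraries, against 57.1, 69.9 and 46.0 in WT basal libraries. Counts of Oasl1 after EBSS were 977, 955 and 960.1 in Vps15KO EBSS libraries, against 92.6, 79.4 and 92.8 in WT EBSS libraries. The lowest Vps15KO library lay far above the highest WT library in each medium, and the log2 difference was 3.16 ± 0.12 (adjusted p = 7.42e-13) in basal medium and 3.11 ± 0.12 (adjusted p = 7.34e-13) in EBSS. Oas3 had 447, 583 and 639 normalized counts in Vps15KO basal libraries, against 100.2, 88.9 and 102 in WT basal libraries. Oas3 in EBSS stood at 485, 464 and 491 in Vps15KO EBSS libraries, against 76.5, 56.0 and 70.3 in WT EBSS libraries. Its log2 difference was 2.23 ± 0.11 (adjusted p = 2.25e-11) in basal medium and 2.44 ± 0.11 (adjusted p = 5.43e-12) in EBSS, again with no overlap. At the low end of the family, Oas1a had 521, 573 and 546 normalized counts in Vps15KO basal libraries, against 369, 400.1 and 389.9 in WT basal libraries. In EBSS Oas1a had 520.2, 535 and 491 in Vps15KO EBSS libraries, against 339, 284 and 258 in WT EBSS libraries. Its groups did not overlap either, and the differences were 0.47 ± 0.09 (adjusted p = 0.000126) and 0.76 ± 0.09 (adjusted p = 5.00e-07). Of the stretches of 50 bases in the Oas1a transcript, 57.6% also occur in Oas1g, so its reads may have been shared out between these copies. Oas2 and Oasl2 lay between, with log2 differences of 0.64 and 0.76 in basal medium and 1.40 and 1.28 in EBSS.

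The viperin pair lies side by side on chromosome 12, in a span of 37.1 kb. Rsad2 encodes viperin, an enzyme that makes a chain-terminating nucleotide from CTP. It had 842, 1138 and 1304 normalized counts in Vps15KO basal libraries, against 63.1, 50.8 and 89.0 in WT basal libraries. Counts of Rsad2 after EBSS were 1128, 1165 and 1143 in Vps15KO EBSS libraries, against 71.5, 62.1 and 65.2 in WT EBSS libraries. This was the largest difference among the members, 3.58 ± 0.14 (adjusted p = 7.42e-13) in basal medium and 3.67 ± 0.14 (adjusted p = 4.85e-13) in EBSS, and the EBSS and basal libraries of a genotype overlapped in both genotypes. Cmpk2, which encodes a mitochondrial nucleotide kinase and lies next to Rsad2, had 101, 108 and 128 normalized counts in Vps15KO basal libraries, against 46.1, 19.1 and 35.0 in WT basal libraries. Cmpk2 in EBSS stood at 284, 214 and 266 in Vps15KO EBSS libraries, against 138, 104 and 95.8 in WT EBSS libraries. Vps15KO libraries lay above WT libraries in each medium, and EBSS libraries above basal libraries in each genotype. The log2 genotype difference was 1.29 ± 0.16 (adjusted p = 1.96e-06) in basal medium and 1.02 ± 0.16 (adjusted p = 2.65e-05) in EBSS.

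**Figure D2:**
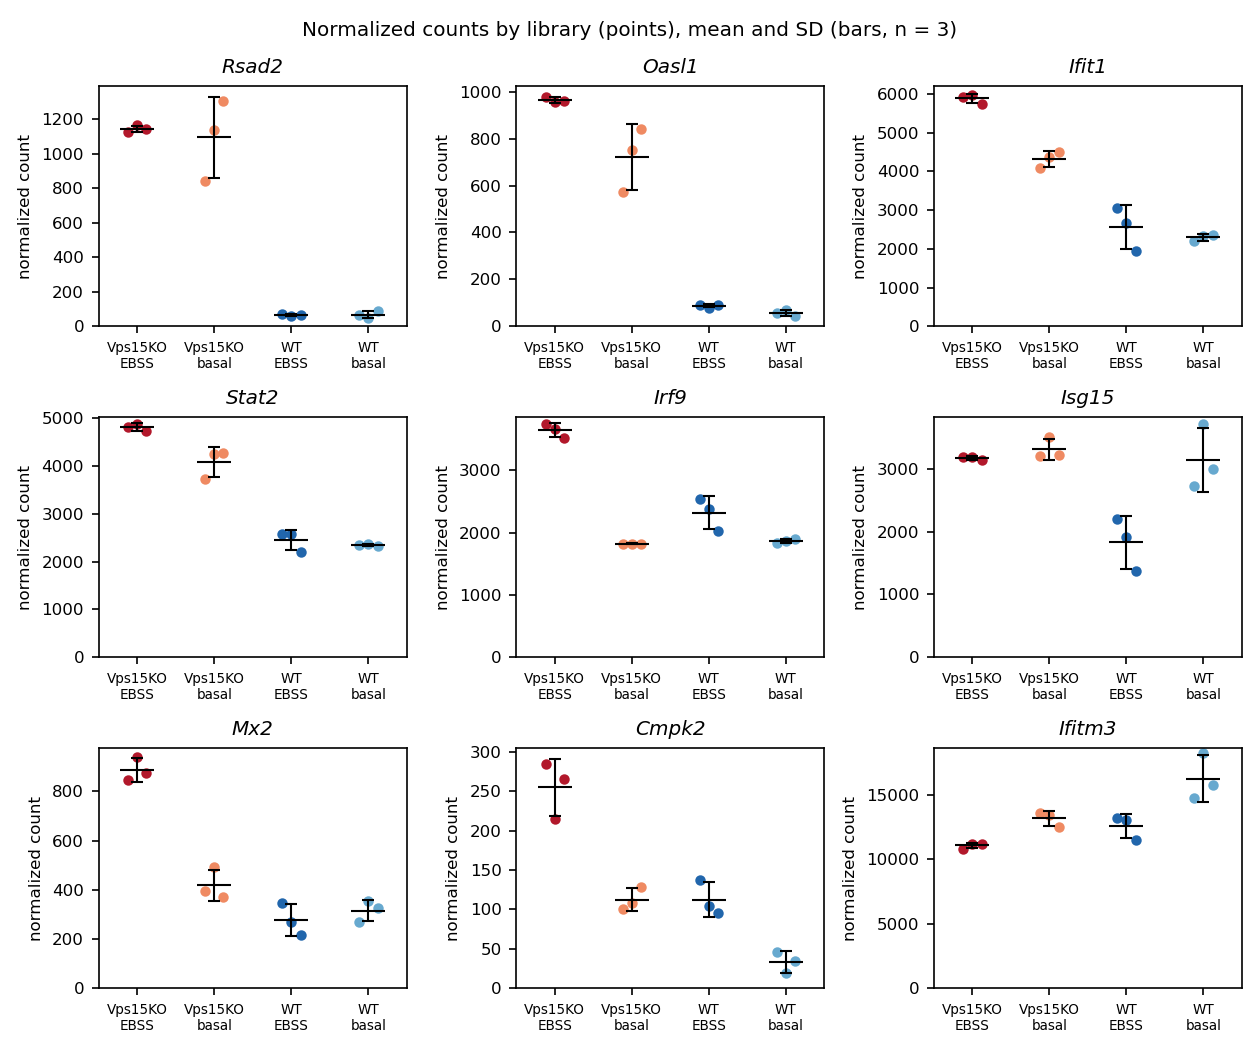
Normalized counts (axes start at 0) of 9 members in each library (points), with the mean and SD of each group (bars, n = 3), in the order Vps15KO EBSS, Vps15KO basal, WT EBSS, WT basal. Rsad2 and Oasl1 separate by genotype, Irf9 and Mx2 are highest in Vps15KO EBSS, Isg15 is lowest in WT EBSS, and Ifitm3 is highest in WT basal.

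In the IFIT family, whose proteins bind viral RNA ends, all 4 members were called higher in Vps15KO cells in both media. Ifit2 had 3546, 3737 and 4205 normalized counts in Vps15KO basal libraries, against 1688, 1306 and 1583 in WT basal libraries. In EBSS Ifit2 had 5174, 5212 and 4779 in Vps15KO EBSS libraries, against 2127, 2023 and 1780.0 in WT EBSS libraries. Its Vps15KO libraries lay above its WT libraries, by 1.32 ± 0.09 (adjusted p = 6.71e-10) in basal medium and 1.35 ± 0.09 (adjusted p = 4.21e-10) in EBSS. Ifit3b had 1089.8, 1258 and 1176 normalized counts in Vps15KO basal libraries, against 867, 1033 and 945 in WT basal libraries. Counts of Ifit3b after EBSS were 1514, 1595 and 1569 in Vps15KO EBSS libraries, against 1077, 993 and 851 in WT EBSS libraries. No library overlapped across genotypes within a medium, and the difference was 0.30 ± 0.08 (adjusted p = 0.0045) in basal medium and 0.67 ± 0.08 (adjusted p = 1.64e-06) in EBSS. Ifit1, which binds RNA ends without cap methylation, averaged 5881 ± 119 normalized counts in Vps15KO EBSS and 4321 ± 208 in Vps15KO basal libraries, against 2556 ± 566 in WT EBSS and 2295 ± 83.3 in WT basal libraries (SD, n = 3 each). Ifit3 differed by 0.45 in basal medium and 0.86 in EBSS. Ifit3 and Ifit3b are near-identical neighbours, with 51.2% of the stretches of 50 bases of Ifit3 found in Ifit3b, so the split of reads between them is uncertain.

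The kinase Eif2ak2 (PKR), which halts translation on viral RNA, and the RNA editor Adar were close between genotypes in basal medium. Eif2ak2 had 1276, 1256 and 1310.0 normalized counts in Vps15KO basal libraries, against 1154, 915 and 1171 in WT basal libraries. Eif2ak2 in EBSS stood at 2582, 2224 and 2320.3 in Vps15KO EBSS libraries, against 1931, 1909 and 1435 in WT EBSS libraries. Its basal difference, 0.25 ± 0.10 (adjusted p = 0.0456), passed the threshold narrowly and was not called without WT basal replicate 2 (0.14, adjusted p = 0.192), without any 1 of the 3 Vps15KO basal libraries, or without Vps15KO EBSS replicate 2 or 3. In EBSS the difference was 0.44 ± 0.10 (adjusted p = 0.00134). Adar had 2110.2, 2195 and 2119 normalized counts in Vps15KO basal libraries, against 2103, 2259 and 2100.3 in WT basal libraries. In EBSS Adar had 3369.8, 3362 and 3280.4 in Vps15KO EBSS libraries, against 2495, 2356 and 1905 in WT EBSS libraries. The basal groups overlapped, with a log2 difference of -0.0078 ± 0.08 (adjusted p = 0.937), and in EBSS the Vps15KO libraries lay above the WT libraries by 0.57 ± 0.08 (adjusted p = 4.23e-06).

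The dynamin-like GTPases, which bind and restrain viral cores (Mx proteins) or the membranes around pathogens (guanylate binding proteins), were all called higher in both media. Gbp7 had 659, 644 and 726 normalized counts in Vps15KO basal libraries, against 352, 257 and 402 in WT basal libraries. Counts of Gbp7 after EBSS were 713, 762 and 687 in Vps15KO EBSS libraries, against 453, 389.7 and 314 in WT EBSS libraries. Vps15KO libraries lay above WT libraries in both media, by 0.97 ± 0.13 (adjusted p = 3.45e-06) in basal medium and 0.87 ± 0.13 (adjusted p = 1.11e-05) in EBSS. Mx1 had 318, 274 and 279 normalized counts in Vps15KO basal libraries, against 205, 254 and 213 in WT basal libraries. Mx1 in EBSS stood at 813, 815 and 757 in Vps15KO EBSS libraries, against 438, 339.9 and 299 in WT EBSS libraries. Its basal difference of 0.34 ± 0.11 (adjusted p = 0.0122) was not called without Vps15KO basal replicate 1 (0.28, adjusted p = 0.0635), while that in EBSS was 1.10 ± 0.11 (adjusted p = 1.02e-07). Mx2 had 394, 491 and 371 normalized counts in Vps15KO basal libraries, against 268, 354 and 325 in WT basal libraries. In EBSS Mx2 had 848, 939.9 and 874 in Vps15KO EBSS libraries, against 348, 269.7 and 215 in WT EBSS libraries. The basal Mx2 difference, 0.38 ± 0.13 (adjusted p = 0.0196), was not called without Vps15KO basal replicate 2 (0.27, adjusted p = 0.121) or without WT basal replicate 1 (adjusted p = 0.0985). In EBSS it was 1.61 ± 0.13 (adjusted p = 8.74e-09), the widest gain from basal medium to EBSS of any member. Gbp2 and Gbp3 differed by 0.63 and 0.85 in basal medium and by 0.71 and 0.62 in EBSS.

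Parp9, Dtx3l and Parp14 encode ADP-ribosylation proteins and share a span of 141 kb on chromosome 16, where the annotated Dtx3l and Parp9 genes overlap by 558 bases. Parp14 had 691, 815 and 731 normalized counts in Vps15KO basal libraries, against 421, 484 and 493 in WT basal libraries. Counts of Parp14 after EBSS were 1658, 1456 and 1377 in Vps15KO EBSS libraries, against 1056, 802 and 578 in WT EBSS libraries. Its groups did not overlap, and the log2 difference was 0.65 ± 0.14 (adjusted p = 0.000623) in basal medium and 0.90 ± 0.14 (adjusted p = 2.37e-05) in EBSS. Parp9, the partner of Dtx3l in a ubiquitin ligase complex, had 1009.7, 1039.9 and 967 normalized counts in Vps15KO basal libraries, against 1035, 972 and 1049.6 in WT basal libraries. Parp9 in EBSS stood at 1439.6, 1427 and 1273 in Vps15KO EBSS libraries, against 1198, 997 and 825 in WT EBSS libraries. Here the basal groups overlapped (-0.018 ± 0.10, adjusted p = 0.88), and the EBSS groups did not (0.46 ± 0.10, adjusted p = 0.000455). Dtx3l differed by 0.52 in basal medium and 0.96 in EBSS, both called.

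Among members with membrane or secreted products were both members that were lower in Vps15KO cells. Ifitm3, which blocks fusion of viruses with endosomes, had 13557, 13455 and 12480.4 normalized counts in Vps15KO basal libraries, against 14763, 18252 and 15744 in WT basal libraries. In EBSS Ifitm3 had 10821, 11211 and 11176 in Vps15KO EBSS libraries, against 13218, 13019 and 11498 in WT EBSS libraries. Vps15KO libraries lay below WT libraries in both media, with log2 differences of -0.30 ± 0.08 (adjusted p = 0.00247) in basal medium and -0.18 ± 0.08 (adjusted p = 0.0488) in EBSS. The call in EBSS was close to the threshold. It ended without WT EBSS replicate 1 (adjusted p = 0.163) or 2, without any 1 of the 6 Vps15KO libraries and without WT basal replicate 3. The basal libraries do not enter this difference, which stayed at -0.18 without them, and act only through the shared spread. Ifi27, which encodes a small interferon-induced membrane protein, had 4087, 4353 and 4267 normalized counts in Vps15KO basal libraries, against 5179.8, 6802 and 5085 in WT basal libraries. Counts of Ifi27 after EBSS were 3507, 3431 and 3424 in Vps15KO EBSS libraries, against 4351, 3723 and 3452 in WT EBSS libraries. It was lower in Vps15KO basal libraries, with a log2 difference of -0.41 ± 0.09 (adjusted p = 0.00101), and in EBSS the groups overlapped, with -0.15 ± 0.09 (adjusted p = 0.194), where a call appeared without WT basal replicate 2 (adjusted p = 0.038). Lgals3bp, a secreted glycoprotein, had 5822, 6156 and 5646 normalized counts in Vps15KO basal libraries, against 4228, 4504 and 4132 in WT basal libraries. Lgals3bp in EBSS stood at 5612, 5794 and 6180.4 in Vps15KO EBSS libraries, against 4046, 4559.8 and 4292 in WT EBSS libraries. All its Vps15KO libraries lay above all its WT libraries, by 0.45 ± 0.06 (adjusted p = 6.73e-06) in basal medium and 0.45 ± 0.06 (adjusted p = 7.46e-06) in EBSS. Bst2 (tetherin, which holds budding virus on the cell) differed by 0.27 in basal medium and 0.50 in EBSS. Rtp4, a receptor chaperone, differed by 0.31 ± 0.11 (adjusted p = 0.025) in basal medium and 0.98 ± 0.11 (adjusted p = 6.76e-07) in EBSS, and its basal call was lost when WT basal replicate 1 (adjusted p = 0.09), Vps15KO basal replicate 2 or Vps15KO basal replicate 3 was left out.

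Of the remaining 6 members, 4 were called higher in basal medium and 6 in EBSS. Over all tested genes these shares were 29.3% and 29.4%, which also stand beside the counts of the role groups above. Ifi44, a cytoplasmic antiviral protein, had 1788, 1856 and 1785 normalized counts in Vps15KO basal libraries, against 680.4, 609 and 867 in WT basal libraries. In EBSS Ifi44 had 2099, 2132 and 1891 in Vps15KO EBSS libraries, against 626, 584 and 453 in WT EBSS libraries. Vps15KO libraries lay above all WT libraries, with log2 differences of 1.31 ± 0.11 (adjusted p = 1.30e-08) and 1.84 ± 0.11 (adjusted p = 1.34e-10). Xaf1, a partner of the caspase inhibitor XIAP, had 1139.5, 1251 and 1219 normalized counts in Vps15KO basal libraries, against 1073, 1286 and 1179 in WT basal libraries. Counts of Xaf1 after EBSS were 1302, 1420.2 and 1347 in Vps15KO EBSS libraries, against 916, 914 and 682 in WT EBSS libraries. In basal medium the groups overlapped (0.031 ± 0.09, adjusted p = 0.796), and in EBSS they did not (0.69 ± 0.09, adjusted p = 4.96e-06). Trim30a, a ubiquitin ligase that restrains NF-kB signalling in the mouse, differed by 0.98 and 1.35 in basal medium and EBSS, and Sp100, a component of nuclear bodies, by 0.72 and 1.01. Samd9l, a translation repressor, differed by 0.24 ± 0.08 (adjusted p = 0.0209) in basal medium, a call lost when WT basal replicate 2 (adjusted p = 0.0763) or Vps15KO basal replicate 3 was left out, and by 0.63 in EBSS. Ifi35 had no call in basal medium (0.12), where 4 of 25 alternatives gave one, among them leaving out WT basal replicate 2 (0.25, adjusted p = 0.0212). It was higher in EBSS (0.47).

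**Figure D3:**
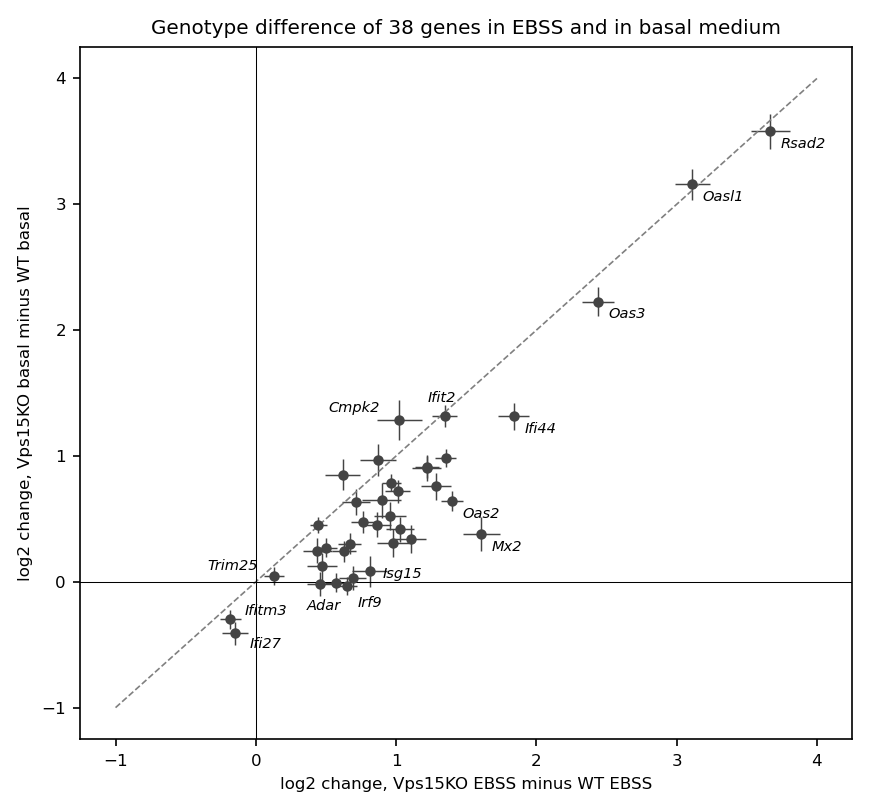
Log2 difference between Vps15KO and WT libraries for each of the 38 genes (points, with SE of the fit), in EBSS (horizontal axis) and in basal medium (vertical axis). Most points lie below the dashed line of equal differences, Rsad2, Oasl1 and Oas3 lie near it at the top right, and Ifitm3 and Ifi27 lie below 0 on both axes.

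The genotype differences ordered the members alike in both media, which share no library. Across the 38 genes Pearson's r between the log2 differences in EBSS and in basal medium was 0.928 (Spearman's rho 0.791), and across the 35 without Rsad2, Oasl1 and Oas3 it was 0.754. These are descriptions across genes, which are not independent replicates. Levels were compared per kb of merged exon length. In WT basal libraries the order ran from Ifitm3 (23972 ± 2654 normalized counts per kb, SD, n = 3), Bst2 (11516 ± 1583) and Isg15 (4156 ± 670.3) down to Oasl1 (22.1 ± 4.58), Rsad2 (15.6 ± 4.49), Oas3 (13.7 ± 1.002) and Cmpk2 (8.02 ± 3.27). Isg15 and its next neighbour in the order, Ifi27 (3878 ± 658), did not differ beyond their spread. Members with a low level per kb in WT basal libraries tended to have the larger genotype differences, with Spearman's rho of -0.59 across the 38 genes in basal medium and -0.58 in EBSS. The WT basal libraries enter both the level and the basal difference. The difference in EBSS holds the WT EBSS libraries instead, where Ifitm3 and Bst2 were again highest per kb and Rsad2 and Oas3 lowest. Its rho is therefore not free of the level either. Neither rho was computed without Rsad2, Oasl1 and Oas3. In Vps15KO EBSS libraries Rsad2 stood at 264 ± 4.28 and Oasl1 at 369.7 ± 4.55 per kb.

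EBSS itself raised 21 of the 38 members in Vps15KO cells, lowered 3 (Bst2, Ifitm3 and Ifi27) and left 14 without a call. With trends of length and GC content removed from each library, none of these 3 was called in Vps15KO cells (adjusted p = 0.672 for Bst2, 0.218 for Ifitm3 and 0.0674 for Ifi27), and Oas3 and Sp100 were called lower instead. In WT cells EBSS raised 11 (28.9%), lowered 14 (36.8%) and left 13 without a call. Over all tested genes, EBSS raised 25.9% and lowered 26.1% in Vps15KO cells, against 31.4% and 31.3% in WT cells. The members' shares in WT cells were thus near those of all tested genes, and calls there do not set the members apart. The members' median log2 change was 0.30 in Vps15KO and 0.00095 in WT cells, beside -0.019 and -0.015 for all tested genes. Without both libraries that stood apart, EBSS raised 25 and lowered 3 members in Vps15KO cells, and raised 9 and lowered 18 in WT cells. That setting omits WT EBSS replicate 1, the highest of its group in 34 members, and keeps replicate 3, the lowest in 34. With 1 library left out, EBSS raised 10 to 15 and lowered 11 to 16 members in WT cells.

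The 11 members raised in both genotypes were Trim25, Irf9, Oasl1, Eif2ak2, Ifit2, Mx1, Gbp2, Gbp3, Cmpk2, Dtx3l and Parp14. Overlaps of calls between genotypes, here and in the next paragraph, were not counted over all tested genes. Cmpk2 changed most in WT cells, with a ratio of EBSS to basal counts of 3.37 and a log2 change of 1.28 ± 0.16 (adjusted p = 1.75e-06), beside 2.27 and 1.02 ± 0.16 (adjusted p = 4.04e-05) in Vps15KO cells. Trim25 rose by 0.75 ± 0.07 (adjusted p = 6.64e-08) in Vps15KO and by 0.67 ± 0.07 (adjusted p = 1.82e-07) in WT cells, and Eif2ak2 by 0.87 ± 0.10 (adjusted p = 1.35e-06) and 0.69 ± 0.10 (adjusted p = 1.45e-05). Mx1 rose by 1.37 ± 0.11 (adjusted p = 9.25e-09) in Vps15KO cells, the largest EBSS change of a member there, and by 0.61 ± 0.11 (adjusted p = 0.000103) in WT cells. The call of Gbp2 in WT cells (0.24 ± 0.10, adjusted p = 0.0494) ended when WT EBSS replicate 1 was left out (0.11, adjusted p = 0.33), and it ended in 21 of 25 alternatives in all. That of Dtx3l (0.41 ± 0.11, adjusted p = 0.00395) ended without both libraries that stood apart (0.20, adjusted p = 0.0528). In Vps15KO cells the call of Oasl1 (0.42 ± 0.12, adjusted p = 0.0073) ended without Vps15KO basal replicate 1 (adjusted p = 0.0616), and so did that of Stat2 (adjusted p = 0.0511). The call of Gbp2 there ended without Vps15KO EBSS replicate 2 (adjusted p = 0.0767), that of Bst2 without Vps15KO EBSS replicate 2 or Vps15KO basal replicate 2 (adjusted p = 0.107 and 0.0812), and that of Ifi27 without Vps15KO basal replicate 2 (adjusted p = 0.0509). The call of Gbp3 ended without Vps15KO EBSS replicate 1 or 2 or Vps15KO basal replicate 3 (adjusted p up to 0.055).

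A further 9 members (Usp18, Stat2, Adar, Ifit1, Ifit3b, Mx2, Parp9, Rtp4 and Samd9l) rose in Vps15KO cells and had no call in WT cells. Oas2 rose in Vps15KO cells (0.27 ± 0.08, adjusted p = 0.0076) and fell in WT cells (-0.49 ± 0.08, adjusted p = 3.30e-05). It had 1555, 1525 and 1395 normalized counts in Vps15KO EBSS and 1142, 1295 and 1259 in Vps15KO basal libraries, against 603, 569 and 481 in WT EBSS and 758, 779 and 802 in WT basal libraries. Another 10 (Isg15, Oas1a, Oas3, Oasl2, Ifit3, Ifi44, Ifi35, Xaf1, Trim30a and Sp100) fell in WT cells and had no call in Vps15KO cells. Isg15 fell most, with a log2 change of -0.79 ± 0.12 (adjusted p = 2.50e-05) in WT cells, to 0.581 of its basal count. The falls of Oasl2, Ifit3 and Ifi44 in WT cells were not called without WT EBSS replicate 3 (adjusted p = 0.215, 0.264 and 0.0784), that of Ifit3 not without WT basal replicate 2 (adjusted p = 0.155), and those of Oasl2 and Ifi44 not without WT basal replicate 3 (adjusted p = 0.0544 and 0.0729). Herc6 gained a call in WT cells without WT basal replicate 2 (-0.19, adjusted p = 0.0455), Adar, Ifit1 and Rtp4 without WT EBSS replicate 3, Mx2 and Usp18 without WT EBSS replicate 1, and Gbp7 without WT EBSS replicate 3 or WT basal replicate 3. In Vps15KO cells Herc6 and Oasl2 gained one without some WT libraries, through the shared spread, and Oas3 without Vps15KO basal replicate 1. Herc6, Gbp7, Rsad2 and Lgals3bp had no call in either genotype with all libraries, and Rsad2 changed by 0.086 ± 0.14 (adjusted p = 0.627) in Vps15KO and -0.0011 ± 0.14 (adjusted p = 0.994) in WT cells.

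The change after EBSS was itself compared between genotypes. It was higher in Vps15KO than in WT cells in 15 of 38 members and lower in 0, where 9.55% of all tested genes were higher and 8.24% lower. Leaving out 1 library gave 10 to 21 higher and at most 1 lower, and 24 were higher without both libraries that stood apart. The count of 24 leaves out WT EBSS replicate 1, mostly the highest of its group, and keeps replicate 3, mostly the lowest. The widest gap was in Mx2, which changed by 1.04 ± 0.13 (adjusted p = 3.25e-06) in Vps15KO and -0.18 ± 0.13 (adjusted p = 0.235) in WT cells, a difference of 1.23 ± 0.19 (adjusted p = 0.000196). Irf9 changed by 0.99 ± 0.07 (adjusted p = 1.32e-09) in Vps15KO and 0.31 ± 0.07 (adjusted p = 0.000816) in WT cells, a difference of 0.69 ± 0.10 (adjusted p = 9.42e-05), which had the smallest adjusted p of the members. Isg15 differed by 0.73 ± 0.18 (adjusted p = 0.00764), Oas2 by 0.76 ± 0.11 (adjusted p = 0.000136) and Adar by 0.58 ± 0.11 (adjusted p = 0.00121). Rsad2 (0.087 ± 0.20, adjusted p = 0.814), Oasl1 (-0.045 ± 0.17, adjusted p = 0.896) and Oas3 (0.22 ± 0.16, adjusted p = 0.393), the members with the widest genotype differences, had no call here.

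**Figure D4:**
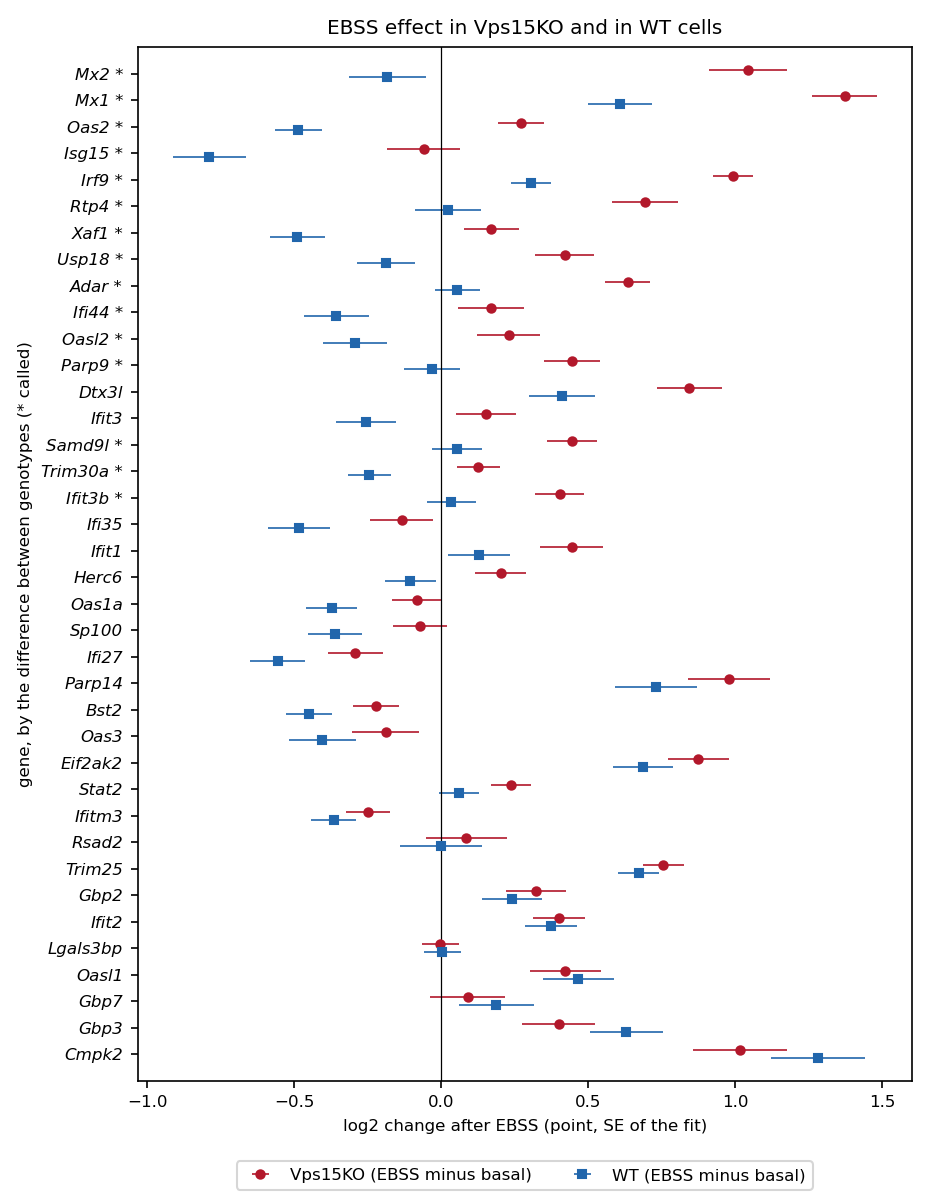
Log2 change after EBSS in Vps15KO (circles) and WT cells (squares) with SE of the fit, for the 38 genes sorted by the difference between genotypes, where a star marks a called difference. Mx2, Mx1, Oas2 and Isg15 head the list, and in the lower rows, from Trim25 down, circles and squares lie close or in the other order.

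The WT EBSS libraries did not hold the members at 1 level. WT EBSS replicate 1 was the highest of its group in 34 of 38 members and replicate 3 the lowest in 34, while over all tested genes these shares were 35.3% and 33.5%. The median deviation of the members from their group mean was 0.18 on the log2 scale in WT EBSS replicate 1 and -0.20 in replicate 3. In the other 3 groups no library was the highest in more than 20 members or the lowest in more than 24. Vps15KO basal replicate 2 was the highest in 20, against 32.1% of all tested genes. Vps15KO EBSS replicate 3 and Vps15KO basal replicate 1 were each the lowest in 24 of 38, against 36.3% and 36.7% of all tested genes. Without WT EBSS replicate 3 the median EBSS change of the members in WT cells was 0.053, and without WT EBSS replicate 1 it was -0.090.

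Interferon transcripts themselves were close to absent. Of 11 interferon genes listed, 7 had a row, and none passed 4 reads in any library. Ifna1, Ifna5, Ifnk and Ifng were not analysed here. Ifnb1, the interferon that fibroblasts make first, had 3 reads in the 3 Vps15KO EBSS libraries together and 4 in the Vps15KO basal libraries, against 0 in all 6 WT libraries. Ifne went the other way, averaging 1.31 normalized counts in Vps15KO basal libraries, against 3.41 in WT basal libraries. In EBSS Ifne averaged 0.328 in Vps15KO and 1.698 in WT libraries. The 7 genes together had 11 reads in each Vps15KO group, against 6 in WT EBSS and 13 in WT basal libraries. These genes did not pass the filter on low values, and differences between groups were not tested.

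Of the receptor and signalling genes described here, Tyk2, Irf1, Irf5 and Irf7 were higher and Socs1 and Socs3 lower in Vps15KO cells in both media. Irf7, which drives interferon gene transcription and is itself inducible, had 2492, 2773 and 2627 normalized counts in Vps15KO basal libraries, against 1295, 1695 and 1440.5 in WT basal libraries. In EBSS Irf7 had 2616, 2774 and 2564 in Vps15KO EBSS libraries, against 1369, 1206 and 1064 in WT EBSS libraries, and the differences were 0.83 ± 0.09 (adjusted p = 4.04e-07) and 1.12 ± 0.09 (adjusted p = 7.73e-09). Irf1, a transcription factor that also binds ISRE-like elements, averaged 6059 ± 355 normalized counts in Vps15KO EBSS and 3200.2 ± 39.0 in Vps15KO basal libraries, against 2217 ± 116 in WT EBSS and 1784 ± 113 in WT basal libraries (SD, n = 3 each). It differed between genotypes by 0.83 in basal medium and 1.44 in EBSS, and its rise after EBSS was larger in Vps15KO cells by 0.60 ± 0.09 (adjusted p = 0.000153). Irf5 had under 31 normalized counts in every library and was higher in Vps15KO cells (0.78 and 0.63). Irf3, the factor that sensors activate to start interferon transcription, was lower in basal medium (-0.64 ± 0.09, adjusted p = 1.46e-05) and had no call in EBSS (-0.11). The kinase gene Tyk2 was higher in both media (0.34 and 0.56). The feedback inhibitors Socs1 (-0.81 and -0.83) and Socs3 (-0.23 and -0.20) were lower. The receptor chain Ifnar1 was lower in EBSS (-0.41 ± 0.05, adjusted p = 3.02e-06), with no call in basal medium (-0.076). Ifnar2 (0.050 and 0.048) and the kinase gene Jak1 (0.023 and -0.043) had no call between genotypes.

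Beyond the members, 57 other interferon-inducible genes were listed, of which 56 had a row, all of them tested (Rigi is the newer name of Ddx58, which had one). In basal medium 29.3% of all tested genes were called higher in Vps15KO cells and 29.2% lower, and in EBSS 29.4% and 27.8%. The median log2 differences of all tested genes were -0.0095 and -0.00076. Of the 56 listed genes, 36 were called higher and 4 lower in basal medium, with a median of 0.45. In EBSS 47 of them were called higher and 2 lower, with a median of 0.75. The 6 with the smallest p in basal medium were the chemokine genes Ccl5 (3.56) and Cxcl10 (3.89), Tap1 (1.498), the peptide transporter of antigen presentation, Gbp6 (1.79), the immunoproteasome subunit gene Psmb8 (2.23) and Nlrc5 (1.55), the transactivator of MHC class I genes. The 4 lower genes were Ifitm2 (-0.87 ± 0.06, adjusted p = 1.19e-09) and Ifitm1 (-0.63 ± 0.14, adjusted p = 0.00108), both neighbours in family of Ifitm3, with Mndal (-0.27 ± 0.08, adjusted p = 0.00488) and Uba7 (-0.23 ± 0.08, adjusted p = 0.0177), which encodes the activating enzyme of ISG15. In EBSS only Ifitm1 and Ifitm2 of the 56 were called lower.

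By position, 19 members lay in 7 clusters with gaps of at most 500000 bases. Within the Ifit cluster (chromosome 19, 4 genes in 99.5 kb) the basal genotype differences ran from 0.30 in Ifit3b to 1.32 in Ifit2. In the Oas2, Oas3 and Oas1a cluster (chromosome 5, 177 kb) they were 0.64, 2.23 and 0.47, and in the pair Oasl2 and Oasl1 (chromosome 5, 41.0 kb) 0.76 and 3.16. In these clusters neighbours shared the direction but not the size. In the Gbp7, Gbp3 and Gbp2 cluster (chromosome 3, 108 kb) they were 0.97, 0.85 and 0.63, and in the pair Mx1 and Mx2 (chromosome 16, 114 kb) 0.34 and 0.38. In the pair Rsad2 and Cmpk2 they were 3.58 and 1.29. Those of Parp14, Dtx3l and Parp9 were 0.65, 0.52 and -0.018. Parp9 had no call, so neighbours did not share the direction in every cluster. The 13 members with an ISRE core in the promoter window had a median genotype difference of 0.79 in basal medium and 0.86 in EBSS, and the 17 without had 0.45 and 0.69. Oasl1 and Rsad2 illustrate the spread within each set: Oasl1, with no core in its window, and Rsad2, with 1, had the widest differences of all.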

How the data were processed

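Per the labels' protocols, poly-A RNA went into strand-marking dUTP libraries and was sequenced on a DNBSEQ-G400. The build mm10, DESeq2, limma, featureCounts and STAR 2.7.10b are named, with no role for each, per the submitters' processing notes. Use of strand in counting is not given in the sources used here. The deposited table holds log2 values. By their form they are a variance-stabilizing transformation, with 3.83 (the floor) where a gene had no reads, of counts that the authors had scaled by library. It was inverted to reads and 1 size factor for each library. In every library 100% of values then gave whole reads within 0.001, with size factors of 0.945 to 1.02. The SDs and SEs given cover the spread between libraries.

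All 12 columns were fitted in 1 model with limma 3.58.1 in R 4.3.3 (a mean per group, empirical Bayes with a variance trend) for genes averaging at least 1 over the floor. Tests were two-sided and adjusted by Benjamini and Hochberg over all 14279 genes in each of 5 comparisons: Vps15KO against WT in each medium, EBSS against basal in each genotype, and the difference of the EBSS effect. Log2 differences are of the deposited values and carry the SE of the fit. They understate ratios of genes with few reads. Motifs, shared stretches of 50 bases and figures were made with Python 3.11.15. Merged exon lengths and transcripts are from GENCODE M21, and promoters and positions from RefSeq.

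The members, gene lists, tests and alternatives were chosen with earlier results of these data known. Values by library are given for the members with the largest and smallest basal difference of each role group, for those that went against their group, and for Isg15, Oas3, Mx2 and Oas2, which were added after their values were seen. Receptor and signalling genes are given by value (1 of the list is not reported here), and of other inducible genes the 6 with the smallest p and the 4 called lower in basal medium. The replicate number is a block only in an alternative, since the labels do not say that it pairs libraries. The other alternatives were filters, normalizations, variance models, a log2(count + 1) scale, voom, a stricter threshold and libraries left out.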

Additional observations from a re-analysis of the deposited data

Results flagged for a closer look

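The EBSS effect differed between genotypes, by the test of the difference itself, in 15 of the 38 members, and in each the change was higher in Vps15KO than in WT cells. On the log2 scale the difference was 1.23 in Mx2, 0.76 in Mx1, 0.76 in Oas2, 0.73 in Isg15, 0.69 in Irf9, 0.67 in Rtp4, 0.66 in Xaf1, 0.61 in Usp18, 0.58 in Adar, 0.53 in Ifi44, 0.52 in Oasl2, 0.48 in Parp9, 0.39 in Samd9l, 0.37 in Trim30a and 0.37 in Ifit3b. The same sign covered unlike changes. By limma, Rtp4 changed by 0.69 ± 0.11 (adjusted p = 5.64e-05) in Vps15KO and 0.023 ± 0.11 (adjusted p = 0.869) in WT cells, a call in Vps15KO cells alone. Xaf1 changed by 0.17 ± 0.09 (adjusted p = 0.139) in Vps15KO and -0.49 ± 0.09 (adjusted p = 0.000188) in WT cells, a fall called in WT cells alone.

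The smaller differences were the less secure. That of Samd9l ended without any of 9 single libraries, that of Ifit3b without any of 8, and that of Ifi44 without any of 6. Adjusted p then reached 0.0815 for Samd9l and 0.102 for Ifit3b. Those of Parp9 (3 libraries), Oasl2 (2) and Trim30a (2) also ended without some. The differences of Mx2, Mx1, Oas2, Isg15, Irf9, Rtp4, Xaf1, Usp18 and Adar were called without each library in turn. The part of the order of the WT EBSS libraries in these values was not tested beyond leaving libraries out.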

How the results depend on the processing

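No member changed sign on the called side in any of the 25 alternatives, and of the counts of members recomputed under them 227 lay within 1.5 times the value reported and 21 did not. Members with a higher EBSS effect in Vps15KO cells were 15 as reported, 9 at an adjusted p under 0.01, 24 without both WT libraries that stand apart and 10 to 21 with 1 library left out. Those lowered by EBSS in Vps15KO cells were 3 as reported, 0 at an adjusted p under 0.01 and 1 to 4 with 1 library left out. With length and GC trends removed they were 2, Oas3 and Sp100, and none of the 3 reported (Bst2, Ifitm3 and Ifi27). The same setting ended the calls of Eif2ak2, Mx1 and Samd9l in Vps15KO basal and of Gbp2 and Ifit3 after EBSS in WT. It added Ifi35 in Vps15KO basal, Ifit3 after EBSS in Vps15KO, Herc6 and Lgals3bp after EBSS in WT, and Dtx3l, Herc6 and Ifit3 for the difference. The 1 member lower in Vps15KO EBSS, Ifitm3, had no call (count 0) with no filter, quantile normalization, length and GC trends removed, no variance trend or an adjusted p under 0.01, and counts were 0 to 2 with 1 library left out. Members lower in Vps15KO basal were 2 as reported and 1 with quantile normalization, and those with a lower EBSS effect 0, and 0 to 1 with 1 library left out. The cause was not tested. With 1 library left out, its group keeps the pooled spread.

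With the replicate number as a block, 29 members were higher and 2 lower in Vps15KO basal, 35 and 1 in Vps15KO EBSS, 21 and 3 after EBSS in Vps15KO, 11 and 14 after EBSS in WT, and 16 and 0 for the difference, and the block changed no other count. Residuals of same-numbered Vps15KO and WT libraries correlated at 0.0825 to 0.26 in basal medium and 0.039 to 0.124 in EBSS, and those of different numbers at -0.212 to 0.106 and -0.111 to -0.012. Between EBSS and basal libraries, same numbers gave -0.0734 to 0.0125 in Vps15KO and -0.155 to -0.0418 in WT, and different numbers -0.0737 to 0.0789 and -0.0405 to 0.142. In no comparison did every same-numbered pair pass 0.1, so the numbers were not taken as pairs, though between genotypes in EBSS every library correlated best with its own number, a hint from the data and not from the design. Fitting the difference within only the groups compared is the reported fit, so it was not run. Depth limits the interferon genes, at 4 reads or fewer in any library.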
